A study of Rattus norvegicus with 2 samples.

Results

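The respiratory chain and ATP synthase were measured here through 79 nuclear gene identifiers, out of 9894 identifiers with a tag in at least 1 of 2 libraries. An identifier was taken when its rat symbol began with Nduf, Uqcr or Atp5, or with Cox and a digit from 4 to 8, or was Sdha, Sdhb, Sdhc, Sdhd or Cyc1. The accession gave the symbol for 77 of them, and the description gave it for 2. One of those 2 is Cyc1, and the other is NM_053756, which is described as an ATP synthase lipid-binding protein (a c subunit) and is named by its accession. The 13 subunits that mitochondrial DNA encodes were not analysed here, so every value below concerns subunits with nuclear genes.

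Both libraries came from neurons of the somatosensory cortex of E16 rats. The cells were dissociated, electroporated with a plasmid, and kept for 48 h in Neurobasal medium with FBS and B27. The control library came from cells given the control plasmid, and the RNAi library from cells given an RNAi plasmid, which by the study's account targets PIWIL1, a PIWI-family protein. The question the design poses is which transcripts differ when PIWIL1 is knocked down. No sorting of the cells that took up plasmid is described, so RNA of the whole dish was read. Piwil1 itself was not analysed here, and the knockdown was therefore left unchecked. Each group is 1 library, so there was no spread between cultures to test against, and every p-value and interval below covers counting error between these 2 libraries only.

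The method was digital gene expression profiling. Tags of 21 bases, all starting at a CATG site, stand for the transcripts, and the copies of all tags of a gene were summed. TPM here means tags per 1000000 clean tags, with no division by transcript length, so levels are compared between libraries and not between genes. The depth was 1947600 tags on genes in the control library and 1865913 in the RNAi library. A count of 3 copies, taken as the floor, equals 0.886 TPM and 0.908 TPM respectively. A gene was called when Fisher's exact test, two-sided and adjusted over the 9894 genes by Benjamini-Hochberg, gave an FDR of 0.05 or less and the log2 ratio of TPM was at least 0.58 in size. All 79 members were listed in both libraries, 71 of them with at least 100 copies in the 2 libraries together, and 5 had fewer than 50 copies together. Cox4i2, an alternative form of a cytochrome oxidase subunit that is known from lung, had 2 copies in each.

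The labelled cell type was checked against marker genes. All 10 neuronal markers were listed in at least 1 library, led by Stmn2, Gap43, Tubb3 and Dcx. Together they had 14559 copies in the control library and 12721 in the RNAi library. Syt1 had 0 copies in the control library and 5 in the RNAi library, and Rbfox3 had 8 in each. Markers of other cells were present as well. Vim, an intermediate filament gene of radial glia and other non-neuronal cells, had 2674 and 3724 copies, and Col1a1, a collagen gene of meningeal fibroblasts, had 1254 and 1143. Of the neuronal markers, Snap25 (log2 ratio −0.72) and Elavl3 (−0.70) were called lower in the RNAi library, and none was called higher. The summed neuronal log2 ratio was −0.16. After the correction for tag ends described further on, Snap25 (−0.56) was no longer called and Elavl3 (−0.82) still was. Gap43, with 74.4% of its copies on tags that end in 8 or more A, moved from 0.44 to −0.45. Of the 7 listed radial glia markers, 6 had ratios below 0 and the median was −0.29, while their sum, most of it Vim, had a log2 ratio of 0.36. None of the 7 was called. The 4 microglial markers held 2857 and 7324 copies, nearly all from Cd68, whose copies lay mostly on tags that end in a run of A and whose log2 ratio was −0.26 after the correction for tag ends described further on. The 6 oligodendrocyte markers held 25 and 19 copies, the 5 listed astrocyte markers 659 and 673, the 6 fibroblast markers 1860 and 1731, the 4 listed erythroid markers 96 and 116, and the 1 listed endothelial marker, Flt1, 0 and 2. The part of these differences in the results below was not tested. In a bulk sample, fewer cells of a type and less RNA per cell cannot be told apart.

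The respiratory chain passes electrons from NADH (complex I) and succinate (complex II) to ubiquinone, then through complex III and cytochrome c to oxygen at complex IV. Complexes I, III and IV pump protons across the inner mitochondrial membrane, and the ATP synthase, complex V, lets them return and makes ATP. Complexes I, III, IV and V each combine subunits from the nuclear genome with subunits from mitochondrial DNA, whereas complex II is wholly nuclear. Neurons depend heavily on this pathway to power ion pumping and synaptic activity.

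The rule called 9 members (11.4%), where the background was 8.93% of all genes. The tags that carry most copies of these 9 are printed first, because the results on single tags and their ends, given further on, refer to them. The last 2 bases are in capitals, and the copies of each tag are given with the results on single tags. The tags of the 7 members called lower are these.
Ndufa4: catgctccgccagatcctcGG
Ndufa7: catgactgcttttcctcctTG
Ndufb2: catgtggttctggattcttTG
Ndufb2, second tag: catgactcggatgctgtgcTG
Sdhd: catgttgcctttgatcactGT
Uqcrfs1: catgtcccctcagaagagtTG
Uqcrb: catgcctcactttaaataaAT
Atp5pb: catgtgatacagagcatttCT

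The members called higher were Uqcrh, with nearly all copies on 1 tag, and Uqcrc2, whose 3 best covered tags are shown because they disagreed.
Uqcrh: catgcagagtcgcttgcctCA
Uqcrc2: catgtatccaagtctcagcCC
Uqcrc2, second tag: catgccaccgcctactgtcCT
Uqcrc2, last tag: catgctgctattgtagcagAA

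Summed over all members, the copies were 90192 in the control library and 91598 in the RNAi library, or 26629.9 and 27728.7 TPM. These were 4.63% and 4.91% of all tags on genes. The summed log2 ratio was 0.06 (95% interval 0.05 to 0.07), and the median over members was 0.04, with 34 members below 0 and 45 above. Over all genes listed in both libraries the median was −0.08. As deposited, the pathway as a whole therefore held nearly the same share of the tags in both libraries, and single members differed more. With library sizes scaled by edgeR's TMM, the median was 0.13 over members (30 below 0 and 49 above) and 0.01 over all genes. A small shift across many members was not tested.

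By the FDR and the threshold on the ratio together, 7 members (8.86%) were lower in the RNAi library and 2 (2.53%) were higher, where the background was 5.97% of all genes lower and 2.96% higher. Among the 4692 genes with at least 100 copies the background was 8.46% lower and 4.62% higher, against 9.86% and 2.82% of the 71 members at that depth. The members' shares were thus near the background in both directions. At an FDR of 0.05 with no threshold on the ratio, 16 members (20.3%) were lower and 24 (30.4%) higher, where the background was 9.53% and 7.14%. Members are deeply counted, and among genes with at least 1000 copies the same rule took 29.3% of genes lower and 34.7% higher, against 22% and 43.9% of the 41 members at that depth.

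**Figure D1:**
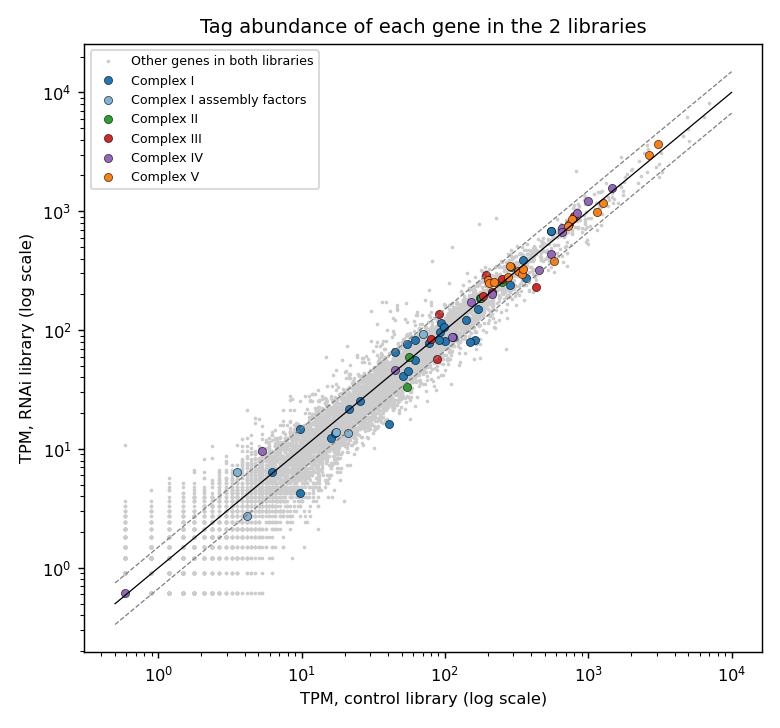
Tag abundance of each gene in TPM in the control library (x axis, log scale) and the RNAi library (y axis, log scale). Coloured points are the members by complex, grey points are other genes listed in both libraries, the solid line marks equal abundance and the dashed lines a log2 ratio of 0.58 in either direction; 7 members were called below the lower line and 2 above the upper one.

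**Figure D2:**
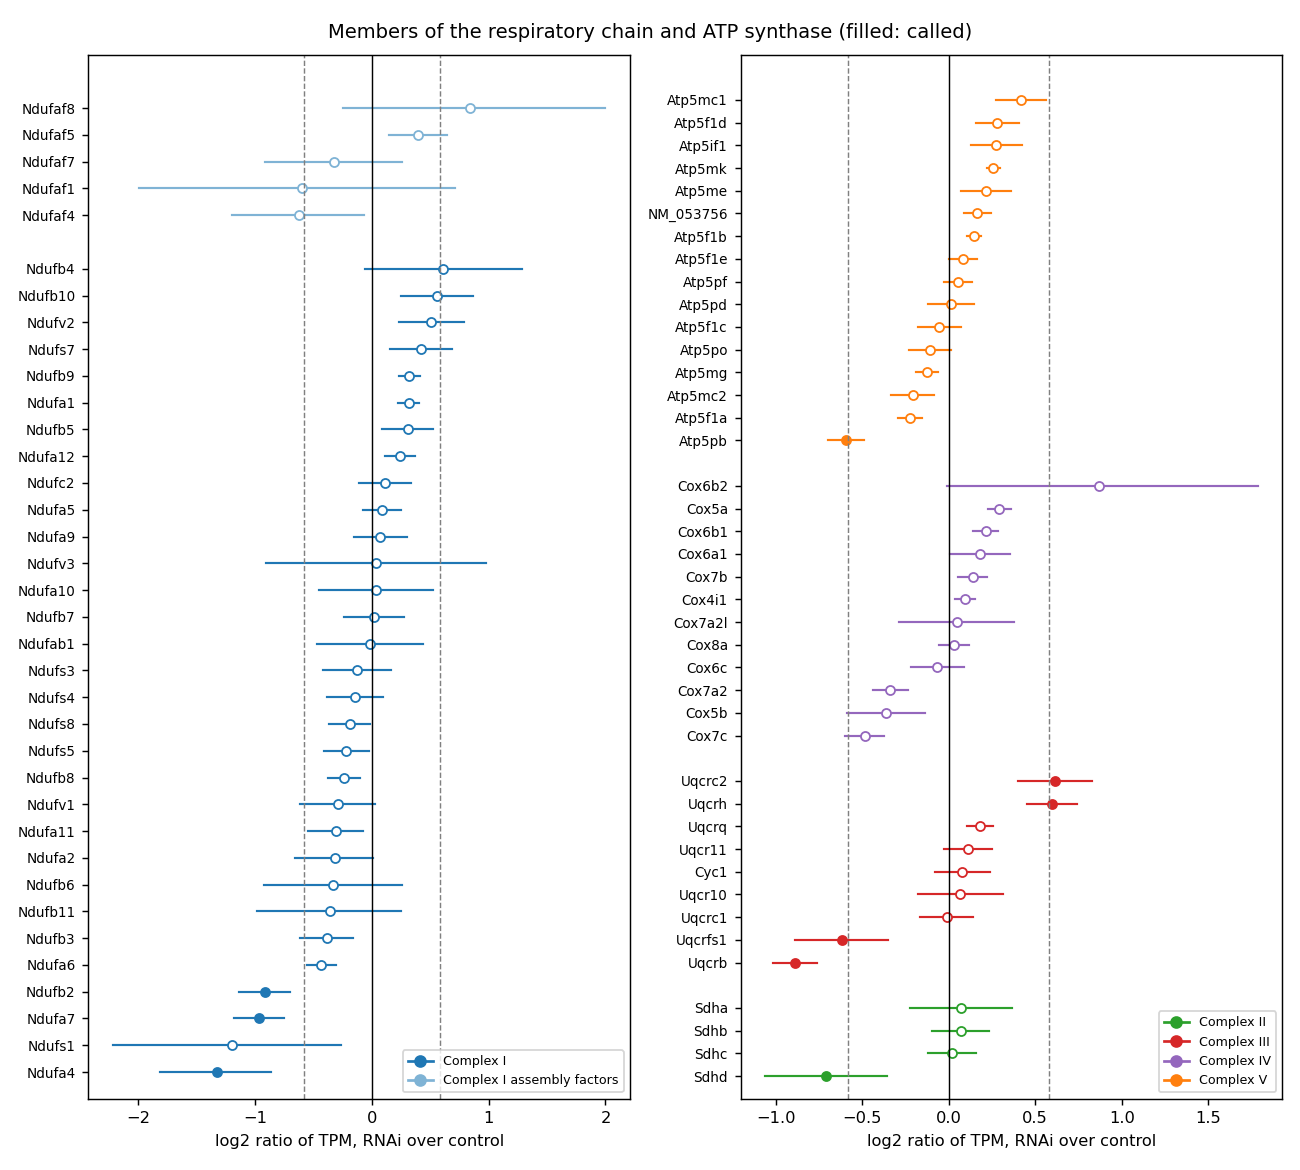
Log2 ratio of TPM, RNAi over control, of members with at least 20 copies in the 2 libraries together, with 95% counting intervals, sorted within complexes (the 2 panels have different x ranges). Filled points are the 9 called members and dashed lines mark 0.58 in either direction; the intervals of 33 of the 79 members included 0.

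Complex I, the NADH dehydrogenase, was covered by 32 identifiers, of which 7 are core subunits that hold the flavin and iron-sulfur clusters or lie beside them, and 25 are accessory subunits that surround the core. Its copies summed to 14666 in the control library and 14419 in the RNAi library (log2 ratio 0.01, 95% interval −0.02 to 0.04). Of the 32, 3 (9.4%) were called lower, all accessory subunits, and none higher, where the background was 5.97% and 2.96% of all genes. Ndufa4, which was long counted with complex I and is now assigned to cytochrome oxidase, had 139 copies and 54 (log2 ratio −1.33, 95% interval −1.81 to −0.86, FDR 9.62e-08). Ndufa7, a subunit of the peripheral arm, had 551 and 275 (−0.97, −1.18 to −0.76, FDR 9.41e-18). Ndufb2, a subunit of the membrane arm, had 505 and 261 (−0.92, −1.14 to −0.70, FDR 6.14e-15). All 3 intervals lay wholly below −0.58.

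Other accessory subunits went either way. The best covered ones were Ndufa1, with 1859 and 2256 copies (0.32, FDR 1.81e-12), and Ndufb9, with 1851 and 2254 (0.32, FDR 8.51e-13). Both passed the FDR but not the threshold on the ratio, and so did Ndufa6, which had 1254 and 907 (−0.43, FDR 3.36e-09). Ndufb10 came closest from below, with 151 and 217 copies, all on 1 tag (0.56, FDR 0.0016). Of the 25 accessory subunits, 13 lay below 0 and 12 above, and the interval of 12 included 0. After the tag-end correction described further on, Ndufb10 stood at 0.29 (FDR 0.209), Ndufa1 at 0.18, Ndufb9 at 0.29 and Ndufa6 at −0.25.

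No core subunit was called. Ndufs1, the largest core subunit and an iron-sulfur protein, had 33 and 14 copies (−1.20, 95% interval −2.22 to −0.26), with an FDR of 0.0513 just outside the limit. Ndufv2, an iron-sulfur subunit at the NADH-oxidizing tip, had 183 and 254 (0.51, FDR 0.0015). Ndufs7, which carries the last iron-sulfur cluster before ubiquinone, had 208 and 272 (0.42, FDR 0.00696). Ndufv1, which binds FMN and NADH, had 187 and 149 (−0.29, FDR 0.304). Core subunits that sit together in the enzyme thus had ratios on both sides of 0.

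The 5 complex I assembly factors caught by the symbol rule, which help build the complex and are not part of it, had few copies. Ndufaf5 had the most, 239 and 307 (0.40, FDR 0.00688), and Ndufaf4 had 71 and 45 (−0.62, FDR 0.137). Ndufaf7 had 59 and 46 (−0.32), Ndufaf8 had 12 and 21 (0.84, 95% interval −0.25 to 2.00) and Ndufaf1 had 14 and 9 (−0.60, −1.99 to 0.71). None was called, and the interval of 3 of the 5 included 0.

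Complex II, succinate dehydrogenase, also belongs to the tricarboxylic acid cycle. Its catalytic subunits were close to 0, with 191 and 196 copies of Sdha, the flavoprotein (0.07), and 605 and 619 of Sdhb, the iron-sulfur subunit (0.07). Its membrane anchors parted, since Sdhc had 850 and 840 (0.02) while Sdhd had 184 and 110 (−0.71, 95% interval −1.06 to −0.36, FDR 0.0011) and was called lower. The sum of the 4 genes was 1830 and 1765 copies (−0.02, −0.11 to 0.08).

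Complex III, the cytochrome bc1 complex, held 4 of the 9 called members, with 2 of its 9 identifiers lower (22.2%) and 2 higher (22.2%). The background was 5.97% and 2.96% of all genes, or 8.46% and 4.62% of those with at least 100 copies. After the tag-end correction described further on, none was called lower, and Uqcrc2 and Uqcrq were called higher. Uqcrb, a small subunit that binds near the ubiquinone site, had 1457 copies in the control library and 767 in the RNAi library (−0.89, 95% interval −1.02 to −0.76, FDR 1.28e-40). Uqcrfs1, the Rieske iron-sulfur protein, had 299 and 190 (−0.62, −0.89 to −0.35, FDR 1.39e-04), and was not called after scaling by TMM (−0.52) or DESeq2's size factors (−0.53). In the other direction, Uqcrc2, a core protein of the matrix side, had 306 and 456 (0.61, 0.40 to 0.83, FDR 4.61e-08). Uqcrh, the hinge protein beside cytochrome c1, had 654 and 966 (0.60, 0.45 to 0.74, FDR 3.80e-16).

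The other complex III subunits lay between these. Cyc1, cytochrome c1, had 625 and 644 copies (0.08), and Uqcrc1, the partner core protein of Uqcrc2, had 718 and 695 (−0.01). Uqcrq, a small subunit with 34.4% of the complex's copies in the control library and 38.0% in the RNAi library, had 2713 and 2998 (0.18, FDR 1.59e-06). Uqcr10 and Uqcr11 had log2 ratios of 0.07 and 0.11. The sum over the complex was 7893 and 7889 copies (0.04, 95% interval −0.01 to 0.08), so the called members in each direction left it nearly level.

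Complex IV, cytochrome c oxidase, had no called member among the 13 identifiers grouped here by symbol. Ndufa4, called lower, is counted with complex I by its symbol, and would be the 1 called member if it were counted here. Cox4i1 and Cox5a, the nuclear subunits that assemble early around the catalytic core, had 4954 and 5159 copies (0.09, FDR 3.86e-04) and 3389 and 4044 (0.29, FDR 2.67e-19). Cox6b1, which faces cytochrome c, had 2840 and 3212 (0.21, FDR 3.75e-09). Lower values were found for Cox7c, with 1530 and 1066 copies (−0.49, 95% interval −0.60 to −0.37, FDR 5.19e-14), and for Cox7a2, with 1874 and 1447 (−0.34, FDR 1.88e-08). Cox5b had 380 and 288 (−0.36, FDR 0.0212). All of these passed the FDR and stayed inside the threshold on the ratio. After the tag-end correction described further on, Cox5b changed sign to 0.13, Cox7a2 stood at −0.14 and Cox6b1 at 0.01. Cox7c (−0.48), Cox5a (0.28) and Cox4i1 (0.15) moved less. Cox6b2, an isoform known from testis, had 18 and 32 copies (0.87, −0.01 to 1.79). The sum was 20806 and 21231 copies (0.07, 0.04 to 0.09).

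Complex V, the ATP synthase, held the most copies, 44602 in the control library and 45866 in the RNAi library (0.08, 95% interval 0.06 to 0.10). Atp5pb, subunit b of the peripheral stalk that holds the catalytic head still, was its single called member, with 1958 and 1267 copies (−0.59, −0.70 to −0.49, FDR 4.81e-26). The other stalk subunits were near 0, at 0.01 for Atp5pd, 0.06 for Atp5pf and −0.11 for Atp5po. The value of Atp5pb lies just past 0.58, and scaling by edgeR's TMM or DESeq2's size factors put it inside.

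The catalytic head, F1, had ratios from −0.22 to 0.28. Atp5f1b, the catalytic beta subunit, had 9034 and 9755 copies (0.15, FDR 1.17e-14), and Atp5f1a, the alpha subunit, had 3879 and 3241 (−0.22, FDR 2.25e-07). These partners, which alternate in the same ring, therefore lay on opposite sides of 0. After the tag-end correction described further on, Atp5f1a stood at −0.06 (FDR 0.58) and Atp5f1b at 0.05 (FDR 0.00267), both close to 0. The 3 genes that encode the same mature c subunit of the rotor also differed among themselves. Atp5mc1 had 673 and 877 copies (0.42, FDR 5.39e-08), NM_053756 had 2589 and 2830 (0.16, FDR 2.41e-05) and Atp5mc2 had 1160 and 979 (−0.21, FDR 0.025). After the correction they stood at 0.39, 0.09 and −0.11 (FDR 0.45 for the last). The most copied tag of Atp5mc2 had 613 and 662 copies, and another had 522 and 288.

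Among membrane subunits, Atp5mk, a small protein linked to dimers of the synthase, had 10423 and 12158 copies (0.26, FDR 3.89e-47) and Atp5mg, subunit g, had 4307 and 3855 (−0.12, FDR 0.0167). Atp5if1, the inhibitor that stops ATP hydrolysis, had 692 and 817 (0.28, FDR 6.94e-04). Atp5mk held 23.4% of the complex's copies in the control library and 26.5% in the RNAi library, and without it the sum over complex V had a log2 ratio of 0.02 (95% interval −0.01 to 0.04). Its weight in the sum was thus large enough to bring the interval over 0.

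**Figure D3:**
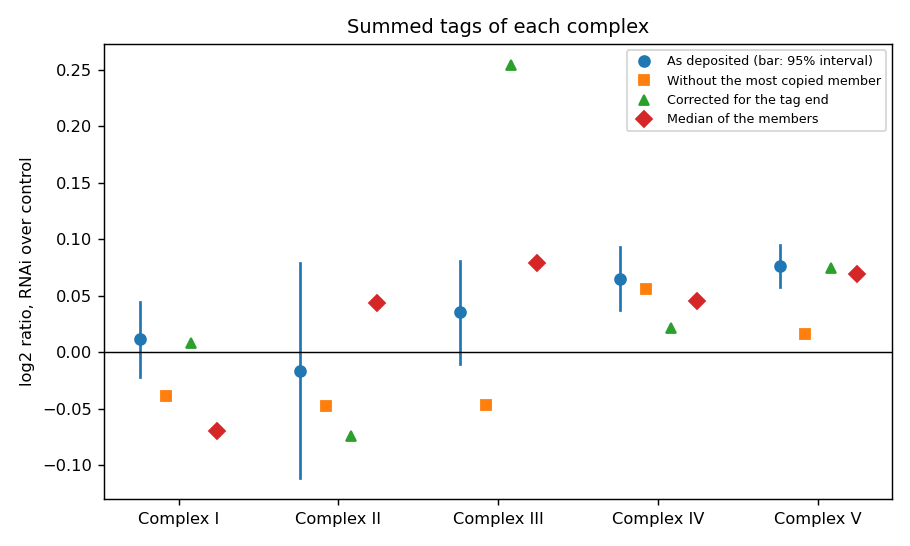
Log2 ratio, RNAi over control, of the tags of each complex summed as deposited (circles, with 95% counting intervals), without the member with the most copies (squares), after correction for the tag end (triangles), and as the median of the members (diamonds). The sums as deposited lie between −0.02 and 0.08, and complex III moves to 0.25 after the correction.

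As deposited, the 5 complexes differed little from each other in their sums. The order from lowest to highest was II (−0.02), I (0.01), III (0.04), IV (0.07) and V (0.08), and the intervals of neighbours in this order overlapped. The interval of complex V (0.06 to 0.10) did not overlap that of complex I (−0.02 to 0.04). Without its most copied member the order changed, since complex I stood at −0.04, II and III at −0.05, IV at 0.06 and V at 0.02. Among the members of a complex the SD of log2 ratios was 0.48 in complex I, 0.38 in II, 0.50 in III, 0.34 in IV and 0.25 in V. After the tag-end correction described below, the sums were 0.01 in I, −0.07 in II, 0.25 in III, 0.02 in IV and 0.07 in V. In complex III, Uqcrq held 34.4% of the copies in the control library and 38.0% in the RNAi library, and the correction moved it from 0.18 to 0.69.

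The calls were set beside the last bases of each member's most copied tag. Over all genes, tags with at least 20 copies had median log2 ratios of −0.70 when they ended in TG, −0.68 in GT, −0.56 in GG, −0.39 in AT, −0.25 in CT and −0.22 in TT, and above −0.2 for every other end. The most copied tag of 28 members had 1 of these 6 ends, and that of 51 had another. All 7 members called lower were among the 28 (25% of them), and none was among the 51. Both members called higher were among the 51. The median log2 ratio was −0.32 over the 28 and 0.09 over the 51. Among all genes with at least 100 copies the same split gave 16.1% called lower against 4.01%, and medians of −0.24 and 0.05. These ends were singled out after the ratios of tags had been seen.

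In each member called lower, the most copied tag had such an end and a lower ratio than another tag of the gene. The Ndufa7 tag ending in TG, printed above, had 461 copies in the control library and 169 in the RNAi library, while another of its tags, ending in TC, had 23 and 47. In Ndufb2 the 2 tags ending in TG had 266 and 148 and 166 and 45, whereas its tag ending in AC had 46 and 50 and its tag ending in CA had 27 and 18 (log2 ratio −0.55). The Sdhd tag ending in GT had 93 and 29, and its tags ending in CC and TC had 28 and 25 and 24 and 25. The Uqcrfs1 tag ending in TG had 212 and 106, against 39 and 42 for its tag ending in AA. Some further tags with such ends were near level or higher. In Ndufa7 a second one had 67 and 59 copies. In Uqcrfs1 another had 7 and 15, and in Atp5pb another had 25 and 27. Tags of the same gene thus had ratios on both sides of 0.

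In 3 members nearly all copies lay on the tag with such an end. Uqcrb had 1442 and 749 copies on its tag ending in AT, Atp5pb had 1792 and 1143 on its tag ending in CT, and Ndufa4 had 135 and 50 on its tag ending in GG. Their remaining tags were few, so these genes had little to compare with. The tags of Uqcrb and Ndufa4 came from CATG site 4 counted from the 3′ end. At the most 3′ site Uqcrb had 8 and 14 copies, and Ndufa4 had 0 in each library. In Atp5pb a tag ending in AA had 100 and 71.

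Summed over the 7 members called lower, tags with the 6 ends had 4740 copies in the control library and 2579 in the RNAi library, and their tags with other ends, 8.71% of the copies, had 353 and 345. The log2 ratio of the latter, scaled to all such tags, was −0.15 (95% interval −0.37 to 0.06). By gene it was −0.54 for Atp5pb (−0.94 to −0.15), −0.22 for Ndufb2, −0.12 for Ndufa4, −0.09 for Uqcrfs1, −0.07 for Sdhd, 0.18 for Uqcrb and 0.91 for Ndufa7. Among the 7 genes, the interval of Atp5pb alone lay below 0, and that of Ndufa7 lay above it (0.16 to 1.70).

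The tags of Uqcrc2, 1 of the 2 members called higher, differed from each other. Its tag ending in AA had 19 copies in the control library and 139 in the RNAi library (log2 ratio 2.91), while its tag ending in CC had 118 and 192 and its tag ending in CT had 110 and 65. Without the tag ending in AA, Uqcrc2 had 287 and 317 copies (0.18, 95% interval −0.06 to 0.41, FDR 0.274) and was not called, a choice made after the tags had been seen. Its most copied tag alone, the one ending in CC, was called at 0.71 (FDR 1.69e-04). The Uqcrh tag ending in CA had 644 and 945 copies, and no other tag of the gene reached 20.

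**Figure D4:**
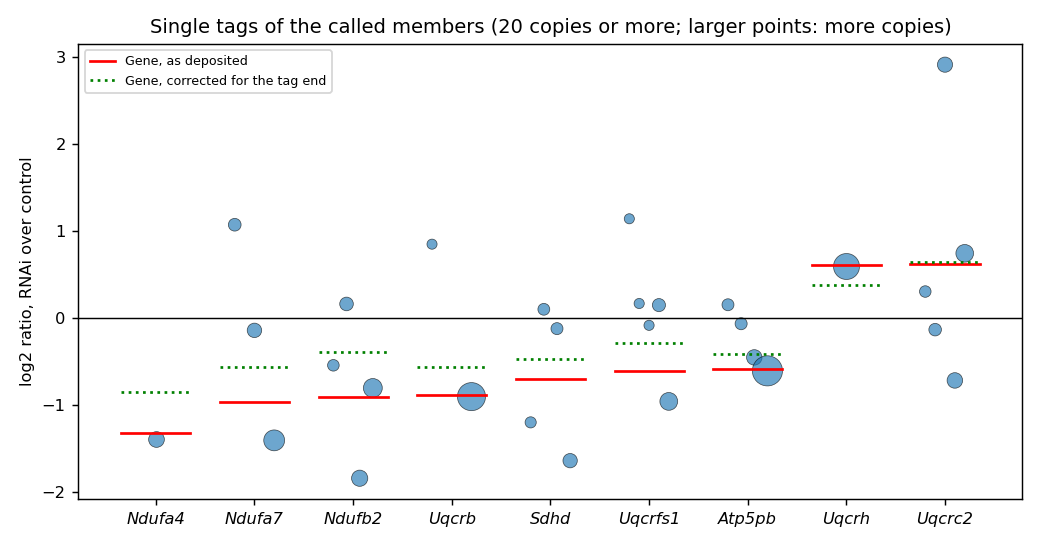
Log2 ratio, RNAi over control, of the single tags with at least 20 copies in the 9 called members, ordered by the ratio of the gene; larger points have more copies. Red lines mark the gene as deposited and dotted green lines the gene after correction for the tag end; tags of 1 gene lie on both sides of 0 in 7 of the 9 members.

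A correction took the median ratio of each kind of tag end out of the tags, with the medians of one part of the genes applied to the other part. After it 2 of the 79 members (2.53%) were called lower and 3 (3.80%) higher, where the background was 3.67% and 1.9% of all genes. Ndufa4 stayed called lower at −0.85 (FDR 0.00307), with 95.9% of its copies on 1 tag that is not at the most 3′ site. Uqcrc2 stayed called higher at 0.63 (FDR 2.82e-08). Ndufa7 and Uqcrb moved to −0.57, just inside the threshold, Sdhd to −0.48, Atp5pb to −0.42, Ndufb2 to −0.40, Uqcrfs1 to −0.29 and Uqcrh to 0.37.

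The correction also brought 3 calls that were not there before. Ndufs7 stood at 0.90 (FDR 2.05e-10), Uqcrq at 0.69 (FDR 5.06e-75) and Ndufaf4 at −0.83 (FDR 0.0383). The most copied tags of Ndufs7 and Uqcrq ended in GG and TG and yet were higher in the RNAi library, with 135 and 219 copies and 2634 and 2922 copies. They are shown because they went against the median of their ends.
Ndufs7: catggggagctgtgccaatGG
Uqcrq: catggggcaaccaggagttTG

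**Figure D5:**
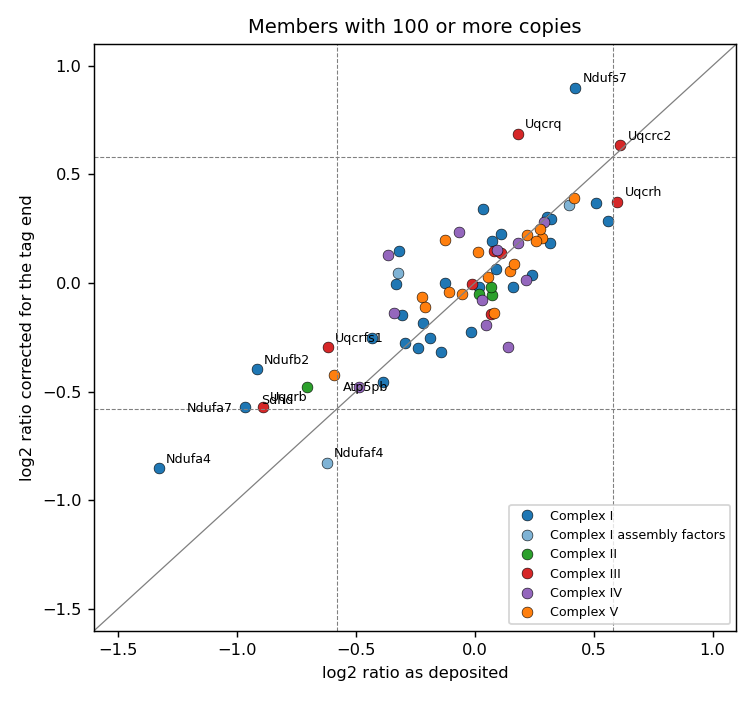
Log2 ratio as deposited (x axis) and after correction for the tag end (y axis) of the members with at least 100 copies, coloured by complex, with dashed lines at 0.58 in either direction. Labelled members were called by one measure or both; Ndufa4 and Uqcrc2 stayed past the lines, and 7 others moved inside them.

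Several features of the tags were shared by the members. Of their 659 tags, 220 had at least 20 copies, and 111 of these were lower in the RNAi library. The most copied tag held a median of 81.8% of a member's copies and in 57 of the 79 it was the tag of the most 3′ CATG site. Among 56 members with at least 2 tags of 20 copies, 15 had all of them on one side of 0 and 41 had them on both sides. Tags ending in TG or GT held 5.51% of the members' copies and 7.42% of those of other genes, and tags ending in 8 or more A held 0.00275% and 1.98%. Many of these genes have processed pseudogenes in the rat genome, and how tags that match them were treated is not given in the sources used here.

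Genes that serve the same complexes without being members were read from lists. Of 45 assembly factors and inhibitors, 1 is the member Atp5if1 and was left out. Of the rest 32 were listed, with 3 called lower (9.4%) and 2 called higher (6.25%), beside 5.97% and 2.96% of all genes. The lower ones were Surf1, an assembly factor of complex IV, with 102 and 49 copies (−1.02), Hccs, the lyase that joins heme to cytochromes c and c1, with 158 and 86 (−0.84), and Sdhaf2, which helps attach FAD to Sdha, with 102 and 58 (−0.78). Those called higher were the complex I assembly factors Tmem186, with 123 and 205 (0.77), and Timmdc1, with 78 and 114 (0.58). The median over the 32 was −0.03. After the tag-end correction Surf1 (−0.37) and Timmdc1 (0.35) were no longer called, and Hccs (−0.71), Sdhaf2 (−0.72) and Tmem186 (0.59) still were.

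Of 17 genes of electron carriers and coenzyme Q synthesis, 16 were listed and 1 (6.25%) was called higher. This was Coq3, a methyltransferase of the coenzyme Q pathway, with 68 and 101 copies (0.61). Cycs, cytochrome c itself, had 701 and 481 (−0.51) and stayed inside the threshold. All 14 tricarboxylic acid cycle enzymes were listed and 1 (7.14%) was called higher, where the background was 2.96% of all genes. It was Idh3a, a subunit of the NAD-dependent isocitrate dehydrogenase, with 225 and 333 (0.60), while Cs, citrate synthase, had 147 and 135 (−0.09). After the correction Coq3 stood at 0.56 and Idh3a at 0.46, and neither list had a called gene.

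None of the 6 listed carriers and channels was called, and all 6 passed the FDR, 3 in each direction. These genes are deeply counted, and among genes with at least 1000 copies the FDR alone took 29.3% lower and 34.7% higher. After the tag-end correction none was called either, and Vdac2 moved from 0.36 to −0.13 while the others kept their sign. Slc25a4 and Slc25a5, which exchange ADP and ATP across the inner membrane, had 2511 and 2853 copies (0.22) and 1144 and 824 (−0.44). Slc25a3, the phosphate carrier, had 1037 and 789 (−0.36), and Vdac1, the outer membrane channel, had 517 and 738 (0.55).

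Among 17 genes of mitochondrial biogenesis and mitochondrial DNA expression, 15 were listed and 2 were called lower (13.3%, beside 5.97% of all genes). These were Tfam, which packages mitochondrial DNA and starts its transcription, with 120 and 64 copies (−0.87), and Mterf1, a transcription termination factor, with 133 and 74 (−0.81). After the correction Tfam stood at −0.49 and was no longer called, and Mterf1 was still called at −1.03. Ppargc1a was not analysed here. The 67 mitochondrial ribosomal proteins had a median of −0.08 with 9 called lower (13.4%) and 2 higher (2.99%). The 72 cytosolic ribosomal proteins had a median of 0.01 with 6 (8.33%) and 2 (2.78%). The 79 members had 0.04 with 7 (8.86%) and 2 (2.53%), where the background was 5.97% and 2.96% of all genes. After the correction the called genes were 6 lower and 1 higher, 3 and 1, and 2 and 3, in the same order.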

How the data were processed

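From rat cortical neurons, 2 digital gene expression libraries were compared, 1 per group, grouped by their labels. Per gene, a count of tags was deposited, equal to the summed copies of its tags, together with the authors' TPM, the count per 1000000 clean tags with no division by length. The submitters' processing notes name rn4. The program that matched tags to genes, its reference and the treatment of tags with several matches are not given in the sources used here. Each tag stood under 1 gene and no tag had fewer than 2 copies. Columns of GO terms were not used.

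Symbols came from a table of RefSeq rat genes by accession, or from the files' description, for 9339 of 9894 identifiers (94.4%), and 64 identifiers shared a symbol. Clean tags recovered from count and TPM were 3386865 and 3303359, of which 57.5% and 56.5% lay on genes. Fisher's exact test was run per gene against all other tags on genes, with Benjamini-Hochberg adjustment. The thresholds of the calls, an FDR of 0.05 and a log2 ratio of 0.58 in size, were those of the study. Intervals are exact (Clopper-Pearson, 95%) and, like the floor of 3 copies, cover counting error only. Tag ends were classed by the last 2 bases, or by run length from 3 A upward (13 or more as 1 class). The correction used tags with at least 20 copies and 0.5 copies added, and was divided equally between the libraries.

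Named genes were the called members, those passing the FDR within 0.1 below the threshold on the ratio, the 3 with the most copies per complex, the 5 largest and 5 smallest ratios among members with at least 50 copies in each library, and of the lists the called genes and a few fixed ones. A gene that this rule takes is counted in the sums and is not reported here by name. Other members were named for their roles after their values were seen. The members and lists were chosen with earlier results of these data known. The test was checked on simulated counts with counting error alone. They held no variation between cultures, so the check does not bear on such variation. Alternatives were other scalings, assumed variation between cultures, other thresholds and other sets of tags. Software was edgeR 4.0.16 and DESeq2 1.42.0 under R 4.3.3, and SciPy 1.17.1, pandas 2.3.3, NumPy 2.4.6 and Matplotlib 3.10.9 under Python 3.11.15.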

Additional observations from a re-analysis of the deposited data

How the results depend on the processing

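No paired analysis was possible because each group had 1 library, and for the same reason no replicate could be left out. The 7 members called lower and 2 called higher became 4 and 0 when edgeR was given a biological coefficient of variation of 0.1 (170 and 114 of all genes), where Ndufa4, Ndufa7, Ndufb2 and Uqcrb were still called, and 0 and 0 at 0.2 (2 and 15 of all genes) and at 0.4 (0 and 0), so that the calls depend on the spread between cultures, which was not measured. They became 1 and 0 at a log2 threshold of 1 (2.65% and 1.48% of all genes). At the FDR alone they became 16 and 24 (9.53% and 7.14%), and after the tag-end correction 2 and 3 (3.67% and 1.9%). With tags of the 6 low-ratio ends left out, chosen after seeing the data, they became 1 and 1 (3.47% and 2.27% of all genes), Cox7c being the member called lower. TMM and DESeq2 scaling each gave 5 lower and 4 higher, losing Atp5pb and Uqcrfs1 and gaining Ndufb10 and Ndufv2. Of all genes, TMM scaling called 4.64% lower and 4.02% higher, and DESeq2's factors 4.8% and 3.86%. The median of all genes was 0.01 under TMM and that of the members 0.13. The sum of complexes I, III, IV and V moved to 0.11, 0.13, 0.16 and 0.17 with TMM and to 0.10, 0.12, 0.15 and 0.16 with DESeq2's factors. Without the most copied member it was −0.038 in I, −0.047 in III and 0.016 in V. The correction gave 0.25 in III and 0.022 in IV. The median of complex I was −0.070, and complex V gave 0.10 without tags ending in 8 or more A and 0.031 from the most copied tags alone. Of 300 values of named members under alternatives, 239 kept direction and call, 9 gained a call, 43 lost it and 9 changed sign. The 239 include members that were not called and stayed so, and the 43 all come from the called members. In the settings with assumed variation the ratios were held as they were, so only the call could change. Among these named members the correction turned Atp5mg to 0.20, Ndufaf7 to 0.047, Sdha to −0.053, Sdhb to −0.020 and Sdhc to −0.051. Members outside that set, such as Cox5b at 0.13, also changed sign. The most copied tag alone gave 0.057 for Ndufaf7 and −0.17 for Sdhc, and leaving out the 6 ends gave 0.91 for Ndufa7 and 0.18 for Uqcrb. Causes were not tested beyond these constructions. At this depth, members with fewer than 50 copies had intervals wider than 0.58. So had some better covered members, among them the called Ndufa4 (−1.81 to −0.86) and Sdhd (−1.06 to −0.36).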
